A study of Mus musculus with 6 samples.

Results

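The B cell identity genes are the 9 genes *Ms4a1*, *Cd79a*, *Cd79b*, *Pax5*, *Cd22*, *Blk*, *Fcrla*, *Cr2* and *Bank1*, taken by gene symbol from a table of 54532 genes measured by bulk RNA sequencing of mouse hearts. All 9 were in the table, and all 9 passed the filter on low genes, as did 15520 genes in all. Of the libraries, 3 came from wild-type (WT) mice and 3 from Crlf2-/- mice, which the labels also call TSLPR KO, all labelled C57BL/6. The study's methods name C57BL/6J for both, and state male sex and adult age for the purchased WT mice. *Crlf2* encodes the TSLP-binding chain of the receptor for thymic stromal lymphopoietin (TSLP), a cytokine of barrier tissues that acts on lymphoid and dendritic cells. Every mouse of both groups had its left anterior descending coronary artery ligated and its heart taken on day 7, so neither group is uninjured. The deletion was in the whole animal. The WT mice came from one supplier and the Crlf2-/- line was made by another, so origin and genotype cannot be told apart. The *Crlf2* gene itself had 917, 813 and 707 fragments in the WT libraries and 437, 651 and 667 in the Crlf2-/- libraries, lower in all 3. Values summed over the gene do not show which exons the remaining fragments came from.

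B cells recognise antigen through the B cell receptor, a membrane immunoglobulin that signals through the paired chains CD79A and CD79B. Coreceptors such as CD21 (*Cr2*) strengthen the signal and inhibitory receptors such as CD22 dampen it, while the kinase BLK and the adaptor BANK1 act inside the cell. PAX5 is the transcription factor that holds a cell in the B lineage. When a B cell becomes an antibody-secreting cell, it loses PAX5 and most of these genes and makes immunoglobulin in great amounts. The healthy mouse heart holds a small B cell population, much of it naive and within or near vessels, and B cells take part in the response to infarction. The question set by the design was whether the loss of the TSLP receptor changed the transcripts of these cells in the infarcted heart.

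Promoters of 4 of the members are shown because 3 of them, *Cd79a*, *Bank1* and *Fcrla*, had similar profiles over the libraries while *Cd22* did not. Each is the 250 bases before the RefSeq start site on build GRCm38.p6, written 5′ to 3′ along the gene, with capitals at matches to CCCNNGGG, a core bound by the B lineage factor EBF1, or CAGGTG, an E-box bound by E proteins, on either strand.
*Cd79a*, chr7:24897247-24897496, plus strand: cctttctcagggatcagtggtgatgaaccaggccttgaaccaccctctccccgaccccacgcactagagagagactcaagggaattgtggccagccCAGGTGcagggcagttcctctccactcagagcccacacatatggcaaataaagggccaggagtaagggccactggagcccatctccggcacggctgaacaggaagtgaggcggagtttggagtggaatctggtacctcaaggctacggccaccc
*Bank1*, chr3:136326067-136326316, minus strand: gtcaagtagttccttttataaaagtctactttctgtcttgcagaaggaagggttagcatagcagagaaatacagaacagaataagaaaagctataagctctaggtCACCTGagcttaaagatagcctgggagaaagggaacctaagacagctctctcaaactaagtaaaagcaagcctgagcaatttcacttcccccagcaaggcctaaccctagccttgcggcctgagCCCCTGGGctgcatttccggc
*Fcrla*, chr1:170927584-170927833, minus strand: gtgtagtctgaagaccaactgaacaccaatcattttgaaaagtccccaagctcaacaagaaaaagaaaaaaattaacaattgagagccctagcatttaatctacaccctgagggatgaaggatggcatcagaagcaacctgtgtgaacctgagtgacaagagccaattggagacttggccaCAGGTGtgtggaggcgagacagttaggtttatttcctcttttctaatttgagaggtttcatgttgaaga
*Cd22*, chr7:30879029-30879278, minus strand: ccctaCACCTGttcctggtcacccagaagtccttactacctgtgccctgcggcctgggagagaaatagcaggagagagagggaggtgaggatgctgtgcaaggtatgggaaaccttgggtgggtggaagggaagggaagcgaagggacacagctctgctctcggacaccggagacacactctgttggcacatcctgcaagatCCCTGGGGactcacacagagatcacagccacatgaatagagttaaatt
The promoter table held 6 of the 9 members, the others being *Cr2* and *Pax5*. CAGGTG occurred in 5 of these 6 and in 17.2% of 32851 promoters of the same length. CCCNNGGG occurred in *Bank1* and *Cd22*, 2 of the 6, and in 11.8% of all promoters. The octamer ATGCAAAT, found in 1.6% of all promoters, and GAGGAAGT, a PU.1 site found in 2.44%, matched none of the 6. No motif overlapped another in these windows. The promoter without CAGGTG was that of *Pax5*, whose profile over the libraries was close to that of *Fcrla*, and *Cd22*, with another profile, had the E-box, so its presence did not follow the profiles.

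All members were low in these hearts. Their mean level in FPKM, fragments divided by gene length and library size, ran after scaling of the libraries from 0.0738 for *Cr2* to 3.83 for *Cd79b*. *Cd79b* stood at the percentile 49.4 of all genes tested and *Cd22*, with 2.09, at 35.1. *Cd79a* followed with 1.27, *Fcrla* with 0.821, *Blk* with 0.465, *Ms4a1* with 0.342, *Bank1* with 0.21 and *Pax5* with 0.093. The ranges over the 6 libraries of neighbours in this order overlapped for every pair except *Cd79b* and *Cd22*. The 9 genes together took 496, 593 and 557 fragments in the WT libraries and 769, 536 and 495 in the Crlf2-/- libraries, against 18508646 to 19682428 fragments on listed genes per library. In a bulk sample, fewer B cells and less RNA per B cell cannot be told apart.

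None of the 9 genes passed the test for a difference between Crlf2-/- and WT hearts. A gene was called when its p, adjusted by the Benjamini-Hochberg method, was 0.05 or less and its log2 fold change 0.5 or more in size. Limma on log2(FPKM + 0.1) called 0 of the 9, where 0.0129% of all genes tested were called. No member had an unadjusted p under 0.05, which 3.22% of all genes had in the higher and 3.36% in the lower direction, and voom on the fragments gave 0 as well. The log2 fold change was above 0 for 6 members and below 0 for 3, with a median of 0.07 beside -0.0042 over all genes. The widest 95% interval was that of *Ms4a1*, from -1.22 to 1.06, so a difference of about that size could have been missed for this gene. *Cr2* and *Pax5* had mean levels of 0.0738 and 0.093, under the 0.1 added before the logarithm. Their intervals therefore understate how large a change could have been missed. To a lesser degree this also holds for *Bank1* and *Ms4a1*. *Bank1* stood at 0.0951 scaled FPKM in the third Crlf2-/- library and *Ms4a1* at 0.138 in the second. The narrowest interval was that of *Cd22*, from -0.11 to 0.48.

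**Figure D1:**
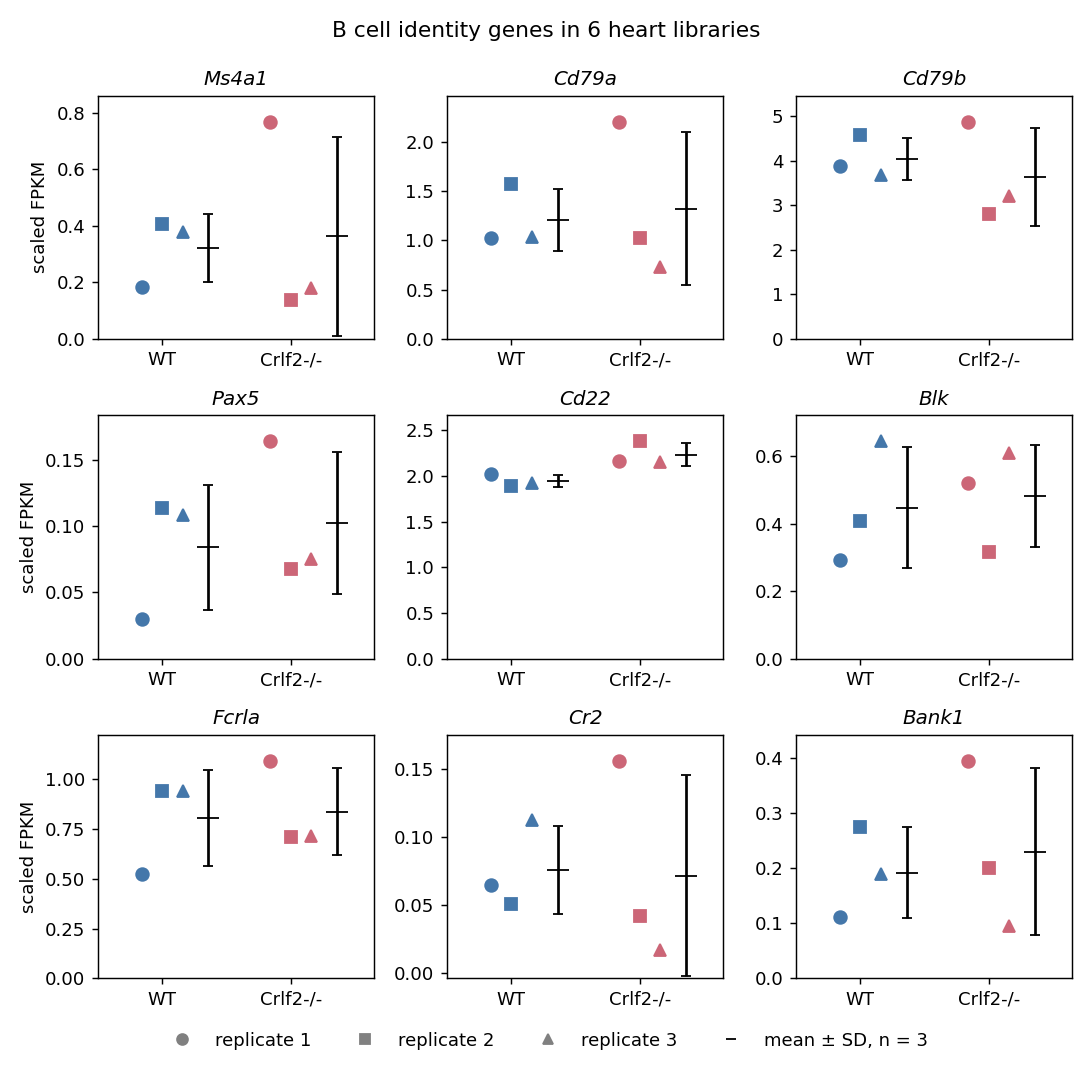
Scaled FPKM of the 9 B cell identity genes in each library, WT in blue and Crlf2-/- in red, with the replicate number given by the symbol and the mean ± SD (n = 3) in black. The first Crlf2-/- library is the highest of the 6 for 7 genes, the exceptions being *Cd22* and *Blk*, and only for *Cd22* do the 2 groups not overlap.

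*Cd79b* and *Cd79a* encode the signalling chains of the B cell receptor. *Cd79b* (chromosome 11, 106311341 to 106314762, minus strand) had 127, 143 and 115 fragments in WT hearts and 154, 94 and 103 in Crlf2-/- hearts. Its scaled FPKM was 3.88, 4.57 and 3.67 in WT and 4.88, 2.80 and 3.20 in Crlf2-/- libraries, so that the first Crlf2-/- library was the highest and the other two were the lowest of all 6. The mean was 4.04 ± 0.471 in WT and 3.63 ± 1.10 in Crlf2-/- mice (SD, n = 3), and the log2 fold change was -0.18 ± 0.20 (SE, adjusted p = 0.985). Without that library the log2 fold change of *Cd79b* was -0.41 (unadjusted p = 0.0276, adjusted p = 0.649), the one unadjusted p under 0.05 among the members in any setting run. *Cd79a* (chromosome 7, 24897381 to 24902197, plus strand), which pairs with it, read 1.02, 1.57 and 1.03 in WT and 2.21, 1.03 and 0.733 in Crlf2-/- libraries in scaled FPKM. Here too the first Crlf2-/- library lay on top, and the other two lay within or under the WT range. The log2 fold change was 0.01 ± 0.37 (adjusted p = 0.998), and -0.41 without the first Crlf2-/- library (adjusted p = 0.896).

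*Ms4a1* (chromosome 19, 11249675 to 11266241, minus strand) encodes CD20, the surface protein most used to count mature B cells. Its fragments numbered 26, 55 and 51 in WT hearts and 105, 20 and 25 in Crlf2-/- hearts. The 105 fragments of the first Crlf2-/- library have a Poisson 95% interval of 85.9 to 127, which covers counting error only and lies above the intervals of all 5 other libraries. Scaled FPKM in that library was 4.84 times the mean of the other two Crlf2-/- libraries, and the variance over the mean of the Crlf2-/- fragments was 45.5, where counting error alone would give about 1. The log2 fold change was -0.08 ± 0.49 (adjusted p = 0.996), and -0.67 without the first Crlf2-/- library (adjusted p = 0.818).

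*Cr2* (chromosome 1, 195136811 to 195176716, minus strand), which encodes the complement receptors of follicular and marginal zone B cells and is also expressed by follicular dendritic cells, was the lowest member. Its 12, 9 and 20 fragments in WT hearts and 28, 8 and 3 in Crlf2-/- hearts again placed the first Crlf2-/- library at the top and the third library at the bottom. Its 3 fragments have a Poisson 95% interval of 0.619 to 8.77. Between the groups the log2 fold change of *Cr2* was -0.10 ± 0.33 (adjusted p = 0.996).

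*Cd22* (chromosome 7, 30865402 to 30880342, minus strand), an inhibitory lectin receptor that binds sialic acid, had another pattern. Its fragments numbered 233, 209 and 212 in WT and 241, 281 and 244 in Crlf2-/- libraries. In scaled FPKM these were 2.02, 1.90 and 1.92 against 2.17, 2.38 and 2.15, every Crlf2-/- library above every WT library. Among all genes tested, 5.37% had groups that did not overlap in this direction and 6.37% in the other, so 1 of 9 is near the background. With a log2 fold change of 0.19 ± 0.13 it was far from the threshold (adjusted p = 0.924), and the exact two-sided permutation test gave p = 0.1, the smallest that 3 against 3 allows. The highest value of *Cd22* was only 1.26 times the lowest, beside 9.50 times for *Cr2* and 5.57 times for *Ms4a1*. The fragments of *Cd22* varied little more than counting allows, with a variance over the mean of 0.784 in WT and 1.94 in Crlf2-/- hearts. An antisense gene, *Gm29439*, shares 479 of the 5042 exonic bases of *Cd22*, and had 0 fragments in all 6 libraries.

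The intracellular members were *Blk*, *Bank1* and *Pax5*. *Blk* (chromosome 14, 63372836 to 63417037, minus strand), a Src family kinase downstream of the B cell receptor, had 18, 24 and 38 fragments in WT hearts and 31, 20 and 37 in Crlf2-/- hearts. The third library of each group was the highest for *Blk*, and the first Crlf2-/- library did not stand out. *Bank1* (chromosome 3, 136053363 to 136326066, minus strand), an adaptor that joins the receptor to calcium release, had 19, 45 and 31 fragments in WT hearts and 65, 35 and 16 in Crlf2-/- hearts. *Pax5* (chromosome 4, 44524757 to 44710487, minus strand) had 6, 22 and 21 in WT and 32, 14 and 15 in Crlf2-/- hearts. The lowest *Pax5* value was that of the first WT library and the highest that of the first Crlf2-/- library, with both other libraries of each group in between. The antisense genes *5730488B01Rik* and *Gm12462*, which share 636 and 125 of its 8853 exonic bases, had 0 fragments. The log2 fold changes were 0.10 ± 0.31 for *Blk*, 0.11 ± 0.38 for *Bank1* and 0.14 ± 0.30 for *Pax5*, each with an adjusted p of 0.996.

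*Fcrla* (chromosome 1, 170917576 to 170927583, minus strand) encodes an Fc receptor-like protein that stays inside B cells and binds immunoglobulin there. Its 21, 36 and 36 fragments in WT hearts and 42, 29 and 28 in Crlf2-/- hearts repeated the order seen for *Pax5*, with the first WT library lowest and the first Crlf2-/- library highest. For *Fcrla* the log2 fold change was 0.07 ± 0.27 (adjusted p = 0.996).

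The order of the libraries was alike for most members. The first Crlf2-/- library was the highest of the 6 for 7 members and the lowest for none. Among the WT libraries the first was the lowest for 6 of the 9. The median of the members' log2 levels, each relative to its mean over the 6 libraries, was -0.48, 0.21 and 0.14 in WT and 0.49, -0.20 and -0.23 in Crlf2-/- libraries. Without the first Crlf2-/- library the median log2 fold change of the 9 genes was -0.23, and without the first WT library it was -0.11, so its sign rested on single libraries.

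Across the 6 libraries the 7 members other than *Cd22* and *Blk* correlated with each other in all 21 pairs, with Pearson r from 0.546 to 0.989 and a median of 0.81 on the log2 scale. *Cd22* and *Blk* were set apart after the values were seen, so the count of 21 is partly fixed by that choice. The closest pair was *Pax5* and *Fcrla*. Without the first Crlf2-/- library, all 21 pairs stayed above 0 over the other 5 libraries, with a median r of 0.567. *Cd22* had a negative r with each of the 8 other members, from -0.574 to -0.016, and *Blk* lay between, with a median r of 0.232 with the 7 others. These libraries share their depth and scaling, and with 6 points, these values describe the libraries only.

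**Figure D2:**
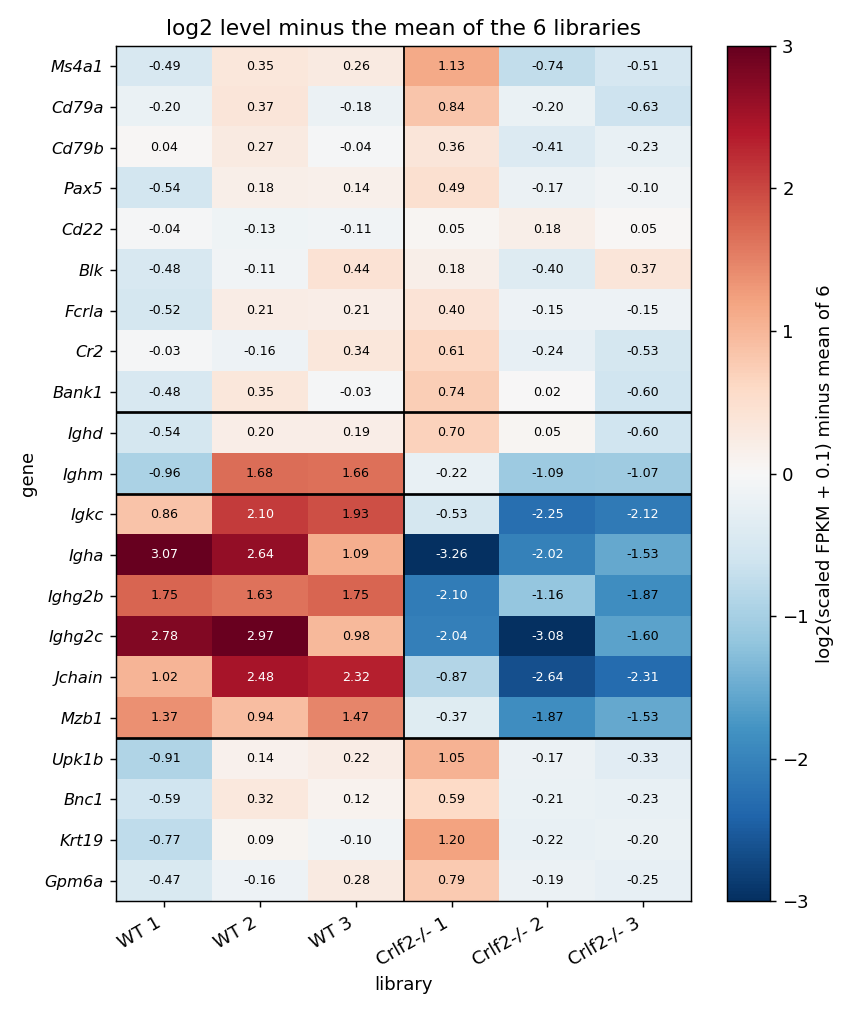
Log2 of scaled FPKM plus 0.1 minus the mean of the 6 libraries, for each gene (rows) in each library (columns), with the 9 B cell identity genes first, then *Ighd* and *Ighm*, genes of antibody-secreting cells, and mesothelial markers. Of the mesothelial markers only those closest in profile to the members, *Upk1b*, *Bnc1*, *Krt19* and *Gpm6a*, are drawn. Those left out had a lower r with the members, down to 0.215 for *Krt18*. The first Crlf2-/- column is high for *Ms4a1* (1.13) and *Upk1b* (1.05), while the antibody genes from *Igkc* to *Mzb1* are above 0 in all WT and below 0 in all Crlf2-/- columns.

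Genes of the same lineage that were not members fell into those that followed the members and those that did not. The order over libraries of the members, summed up as the mean of their standardised profiles, was followed closely by 84 of the 15511 other genes tested at an r of at least 0.9. *Ighd*, the constant region of the IgD that naive B cells carry, was among them with r = 0.917, and had 31, 52 and 52 fragments in WT hearts and 76, 50 and 29 in Crlf2-/- hearts. *Fcrl5*, a receptor of the Fc receptor-like family, had r = 0.91. An r of at least 0.8 was reached by 391 genes. Among these were *Ly6d*, a surface marker of B cell commitment (0.865), and *Cxcr5*, the receptor that leads B cells to follicles (0.825). *Fcrl5* had only 2, 15 and 11 fragments in WT hearts and 21, 7 and 9 in Crlf2-/- hearts. *Cxcr5* had 3, 10 and 16 against 36, 15 and 14. None of these 4 genes passed the test, and the log2 fold change of *Ighd* was 0.10 ± 0.35 (adjusted p = 0.996).

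The 10 genes closest to the members in profile were *Copa*, *Cyp2s1*, *Gm37305*, *Arhgef26*, *Fbxo27*, *Cyp2r1*, *Gas7*, *Upk1b*, *Ppp4r4* and *Lrrc40*, with r from 0.964 to 0.995. None of them belongs to the B lineage lists. *Upk1b*, a uroplakin, is a marker of the mesothelium that covers the heart as the epicardium, and had 70, 143 and 152 fragments in WT hearts and 276, 123 and 105 in Crlf2-/- hearts. The 11 other mesothelial and epicardial markers, looked up after this was seen, had r from 0.215 for *Krt18* to 0.956 for *Bnc1*, with *Krt19* (0.95) and *Gpm6a* (0.934) near the upper end and *Slpi* (0.64), *Muc16* (0.775) and *Wt1* (0.781) near the lower. For the whole list of 12 mesothelial and epicardial markers, written after the values were seen, the summed FPKM was 22.2, 38.5 and 37.9 in WT and 60.6, 25.2 and 29.6 in Crlf2-/- libraries. Its median level relative to the mean of the 6 libraries correlated with that of the 7 co-varying members at r = 0.922, and at r = 0.856 without the first Crlf2-/- library. Both sets were formed after the values were seen, and *Upk1b* was found by its profile, so these r are descriptions only. All 12 markers were present in every library, none had an unadjusted p under 0.05 between the groups, and the part of this tissue in the members' spread was not tested.

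No gene of the machinery around the receptor was called. Over all genes tested, 0.0129% were called, so no call in a short list is near that share. An unadjusted p under 0.05 was reached by 3.22% in the higher and 3.36% in the lower direction. Of 20 genes of B cell receptor signalling, 0 were called, with a median log2 fold change of -0.03. In this list an unadjusted p under 0.05 was found for 2 in the higher direction and 0 in the lower. The 2 were *Ifitm3*, an interferon-induced membrane protein that also supports B cell signalling, with 0.63 ± 0.14 (adjusted p = 0.254), and *Pik3ap1*, an adaptor for phosphoinositide 3-kinase, with 0.49 ± 0.15 (adjusted p = 0.469). Many genes of this list are also expressed by macrophages, whose markers *Cd68* and *Adgre1* stood at 135 to 228 and 85.4 to 112 scaled FPKM. Among 11 inhibitory receptors and phosphatases, 0 were called and 1, *Cd5*, had an unadjusted p under 0.05, with a log2 fold change of -1.06 ± 0.32 (adjusted p = 0.466). *Cd5* is a marker of T cells as well as of B-1 cells.

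Transcription factors of the lineage gave a similar count. Of 14, 0 were called (0.0129% over all genes) and 1 had an unadjusted p under 0.05 in the lower direction (3.36% over all genes). This was *Pou2af1*, the B cell coactivator of octamer factors, which is also high in antibody-secreting cells. Its fragments numbered 44, 41 and 88 in WT hearts and 37, 25 and 26 in Crlf2-/- hearts, with a log2 fold change of -0.82 ± 0.31 (adjusted p = 0.673). Every WT library was above every Crlf2-/- library for 4 of the 14, where the share over all genes was 6.37%, and the reverse held for 0. Beside *Pou2af1* these were *Foxo1* (-0.23), *Ikzf3* (-0.52) and *Bach2* (-0.40). The median log2 fold change of the 14 was 0.02, with 7 above 0 and 7 below. Of 24 other surface and cytoplasmic genes of the lineage, 20 were tested and 0 called. An unadjusted p under 0.05 was found for 2 in the higher (3.22% over all genes) and 3 in the lower direction (3.36%). *Cd40*, the receptor for T cell help that macrophages share, was at 0.52 ± 0.14 (adjusted p = 0.355) and *Cd180*, a Toll-like receptor homologue, at 0.45 ± 0.15 (adjusted p = 0.542). On the other side were *Ltb*, a lymphotoxin chain made by B and T cells, at -0.89 ± 0.20 (adjusted p = 0.254), and *Ccr7*, the homing receptor of naive lymphocytes and dendritic cells, at -0.76 ± 0.24 (adjusted p = 0.514), beside *Pou2af1*.

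No gene of early or of activated B cells was called, where 0.0129% of all genes tested were called. Of 10 precursor genes, 4 were tested and none was called. *Vpreb2* and *Igll1*, of the pre-B cell receptor, and *Rag2*, which rearranges immunoglobulin genes, had 0 fragments in all libraries. Under the filter but not absent were *Vpreb1*, with 10 fragments in the first WT library, *Rag1*, with 5 in the first Crlf2-/- library, and *Dntt*, with 2 to 4 in every library. Of 8 germinal centre genes, 5 were tested and 0 called. Among these only *Fas*, a death receptor of many cell types, had an unadjusted p under 0.05, in the lower direction (3.36% over all genes). Its log2 fold change was -0.38 ± 0.13 (adjusted p = 0.615). Of 13 factors that attract or sustain B cells, 10 were tested and 0 called. *Cxcl13*, the ligand of CXCR5, had 45, 135 and 343 fragments in WT hearts and 34, 35 and 58 in Crlf2-/- hearts, and a log2 fold change of -1.62 ± 0.65 (unadjusted p = 0.0389, adjusted p = 0.721), which was -2.37 without the first and -0.91 without the third WT library.

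Most tested genes of antibody production had lower values in the Crlf2-/- libraries, and 1 of them passed the test. Of 12 immunoglobulin constant genes, 10 were tested and 1 was called (0.0129% over all genes). An unadjusted p under 0.05 was found for 7, all in the lower direction (3.36% over all genes). The median log2 fold change of the 10 was -2.50. Under the filter was *Ighg1*, a switched heavy chain, with 4, 11 and 9 fragments in WT hearts and 0, 30 and 1 in Crlf2-/- hearts. The called gene was *Ighg2b*, a switched heavy chain, with 157, 138 and 151 fragments in WT hearts and 5, 16 and 7 in Crlf2-/- hearts (-3.42 ± 0.27, adjusted p = 0.00856). That call was lost without the first WT, the second WT or the third Crlf2-/- library, with adjusted p values of 0.0561, 0.0757 and 0.118. *Igkc*, the kappa light chain, had 1304, 2948 and 2620 fragments in WT hearts and 480, 153 and 161 in Crlf2-/- hearts (-3.27 ± 0.50, adjusted p = 0.126). Every WT library was above every Crlf2-/- library for 6 of the 10 genes tested, where the share over all genes was 6.37%.

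*Igha*, the mucosal heavy chain, had 1394, 992 and 335 fragments in WT hearts and 11, 36 and 51 in Crlf2-/- hearts (-4.53 ± 0.58, adjusted p = 0.0851). *Ighg2c* had 229, 251 and 61 against 5, 1 and 8 (-4.48 ± 0.57, adjusted p = 0.0778). *Ighg3* and the lambda chain *Iglc1* were at -1.61 ± 0.36 and -3.61 ± 0.79 (adjusted p = 0.254 for both). *Ighm*, the IgM chain that both naive B cells and antibody-secreting cells express, had 983, 5868 and 5769 fragments in WT hearts and 1577, 917 and 893 in Crlf2-/- hearts. Its groups overlapped, with the first WT library below the first Crlf2-/- library, and the log2 fold change was -1.59 ± 0.72 (adjusted p = 0.807), or -2.46 without the first (adjusted p = 0.0875) and -1.14 without the second WT library. Constant genes of one class resemble each other in sequence, so fragments could be assigned to the wrong member of a class.

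Of 12 genes of antibody-secreting cells, 10 were tested and 0 called, and 3 had an unadjusted p under 0.05, all in the lower direction, where the background was 3.36%. The median log2 fold change of the 10 was -0.27, and 4 of them were above 0, namely *Prdm1* (0.02), *Sdc1* (0.10), *Txndc5* (0.10) and *Fkbp11* (0.30), none with an unadjusted p under 0.05. *Jchain*, which joins IgM and IgA into polymers, had 388, 1033 and 926 fragments in WT hearts and 97, 26 and 33 in Crlf2-/- hearts (-3.88 ± 0.52, adjusted p = 0.109). *Mzb1*, an endoplasmic reticulum chaperone for immunoglobulin, had 36, 25 and 37 against 9, 2 and 3 (-2.51 ± 0.38, adjusted p = 0.11). *Derl3*, of endoplasmic reticulum degradation, was at -1.27 ± 0.21 (adjusted p = 0.132). Without the first Crlf2-/- library, *Jchain* (adjusted p = 0.0277), *Mzb1* and *Igkc* (0.0194 for both) and *Iglc1* (0.0169) were called, and no member was.

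**Figure D3:**
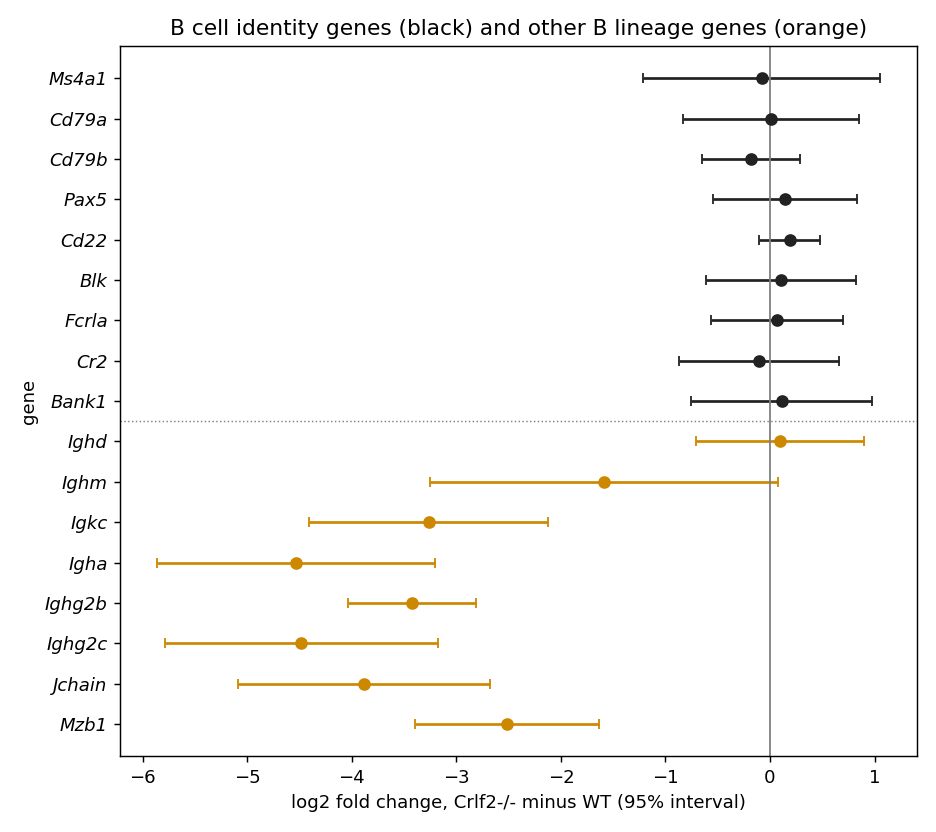
Log2 fold change of Crlf2-/- over WT hearts from limma, with 95% intervals (n = 3 against 3), for the 9 B cell identity genes in black and for other genes of the lineage in orange. The intervals of all 9 B cell identity genes, *Ighd* and *Ighm* include 0, and those from *Igkc* to *Mzb1* lie below it.

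Set against the members in the same library, the immunoglobulin genes differed in amount. All immunoglobulin constant genes together had 8.39, 17.5 and 16.5 fragments per fragment of the 9 members in WT and 2.84, 2.29 and 2.35 in Crlf2-/- hearts. The ratio of *Ighm* to *Ighd* fragments was 31.7, 113 and 111 in WT and 20.8, 18.3 and 30.8 in Crlf2-/- hearts, so that its groups did not overlap but the first WT library lay close to the third Crlf2-/- library. Both ratios were formed after the values were seen, and neither depends on the scaling of the libraries.

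Markers of other cells moved with the groups or with single libraries. Of 16 T cell markers, 0 were called and 14 had an unadjusted p under 0.05, all in the lower direction (3.36% over all genes), with a median log2 fold change of -1.05. Their summed FPKM ranged from 28.1 to 40.2 in WT and from 15.8 to 19.4 in Crlf2-/- libraries, and the first Crlf2-/- library, highest of the 6 for the B cell identity genes, lay below all WT libraries for them, though above the other two Crlf2-/- libraries. All 5 red blood cell markers tested were lower in every Crlf2-/- library than in every WT library (6.37% over all genes), with summed FPKM of 226 to 366 in WT against 85.4 to 161. The 10 cardiomyocyte markers summed to 1372 to 2421 in WT and 926 to 1723 in Crlf2-/- libraries, and 4 had an unadjusted p under 0.05 in the lower direction (3.36% over all genes). Adipocyte markers, of which 5 of 8 were tested, summed to 38.6 to 107 in WT and 17.3 to 56.8 in Crlf2-/- libraries, highest in the second WT library and the third Crlf2-/- library. Of 9 markers of lymph node and follicular stroma, 3 were tested, *Cxcl13*, *Ccl21a* and *Pdpn*. *Ccl21a* had 178, 52 and 10 fragments in WT hearts and 5, 205 and 6 in Crlf2-/- hearts (-1.24 ± 1.64, adjusted p = 0.994). *Pdpn* stood at 32.0 to 40.4 scaled FPKM. Of 9 thymus markers, 7 were under the filter. The part of these tissues in the values of the B lineage genes was not tested.

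**Figure D4:**
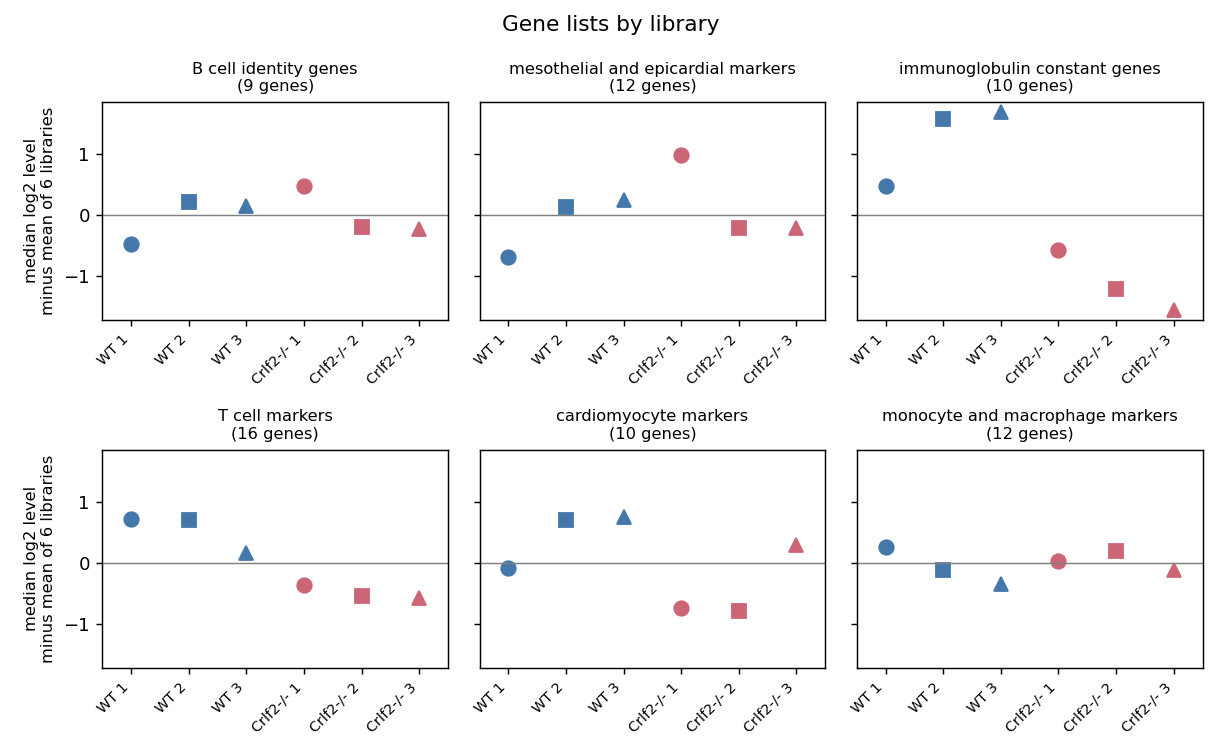
Median log2 level of the tested genes of 6 lists in each library, relative to the mean of the 6 libraries, with WT in blue and Crlf2-/- in red. The B cell identity genes (from -0.48 to 0.49) and the mesothelial markers (from -0.68 to 0.98) are lowest in the first WT and highest in the first Crlf2-/- library, while immunoglobulin and T cell genes are higher in all WT libraries.

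The remaining lists bear on which cells the tissue held. Over all genes, 3.22% had an unadjusted p under 0.05 in the higher and 3.36% in the lower direction. Monocyte and macrophage markers (12 tested, 1 with an unadjusted p under 0.05 in the higher direction), neutrophil markers (6 tested, 0), fibroblast markers (9 tested, 0), endothelial markers (7 tested, 1 lower), plasmacytoid dendritic cell markers (9 tested, 2 higher and 1 lower) and NK cell markers (10 tested, 3 lower) had no called gene. Monocyte and macrophage markers relative to their mean of the 6 libraries stood at 0.26, -0.12 and -0.35 in WT and 0.04, 0.19 and -0.11 in Crlf2-/- libraries. Within the Crlf2-/- group *Cd22* had this order in scaled FPKM (2.17, 2.38 and 2.15) but not in fragments (241, 281 and 244). The Poisson 95% intervals of its fragments overlapped within each group, so the order of *Cd22* there is not resolved. Its WT values of 2.02, 1.90 and 1.92 scaled FPKM had another order than the macrophage markers. For both, the first WT library was the highest of its group. That library was the highest of all 6 for the macrophage markers but below every Crlf2-/- library for *Cd22*. The first Crlf2-/- library, highest for most other members, was not the highest here. The part of macrophages in the values of *Cd22* was not tested. The extraction text in the labels speaks of retinas, while the tissue label and the study's methods say heart. Rod and cone markers, a list of 6 written after the values were seen, held 11 to 22 fragments per library in all and none passed the filter, whereas the cardiomyocyte markers held 52079 to 120107.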

How the data were processed

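The study sequenced RNA of infarcted hearts, border tissue included, of WT and Crlf2-/- mice. The labels number 3 libraries per group without naming animals, so p-values measure only the spread between these samples. The authors trimmed reads, aligned them with HISAT2 2.0.5 (processing notes, which list builds hg38 and mm10), counted fragments with featureCounts and deposited FPKM per gene. Gene positions equalled those of GENCODE M21 on GRCm38 for 53499 of 54409 shared genes and for all 9 members. Multiplying FPKM by gene length gave whole fragments for 100% of nonzero values (tolerance 0.05). The depth of the libraries was 18508646 to 19682428 fragments on listed genes, and genes near the limit of 10 fragments are imprecise by counting alone. The table held 0 columns of other samples.

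Libraries were scaled with trimmed-mean (TMM) factors worked out on these fragments. Tested were genes that had 10 or more fragments in 3 or more libraries and 15 or more over all 6. Limma 3.58.1 in R 4.3.3 (lmFit, then eBayes, trend and robust) was applied to log2 values of the deposited FPKM plus a pseudocount of 0.1, which understates changes of low genes, over all genes tested, with Benjamini-Hochberg adjustment. Steps were tested on simulated data. Figures used matplotlib 3.10.9 in Python 3.11.15.

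The members and gene lists were chosen with earlier results of these data known, so counts over lists are descriptions. Named were the members, *Crlf2*, list genes in order of unadjusted p or as their role required, and the 10 genes closest in profile. *Cd68*, *Adgre1*, *Ighd*, *Ighg1*, *Fcrl5*, *Ly6d*, *Cxcr5*, *Vpreb1*, *Vpreb2*, *Igll1*, *Rag1*, *Rag2*, *Dntt*, *Prdm1*, *Sdc1*, *Txndc5*, *Fkbp11* and the mesothelial markers other than *Upk1b* were named after their values were seen. Alternatives were other scalings, filters and pseudocounts, voom, the replicate number as a block, and leaving out each library. Results that need items withheld for evaluation are not reported here.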

Additional observations from a re-analysis of the deposited data

How the results depend on the processing

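No B cell identity gene was called under any alternative run, in scaling, filter, pseudocount, voom, block or left-out library. With each library left out in turn, the median log2 fold change of the 9 genes ran from -0.23 to 0.17, and the number with an unadjusted p under 0.05 from 0 to 1. The single log2 fold changes ran from -0.23 to 0.44 for *Bank1*, -0.11 to 0.35 for *Blk*, -0.41 to 0.33 for *Cd79a*, -0.41 to -0.0215 for *Cd79b*, -0.44 to 0.13 for *Cr2*, -0.18 to 0.19 for *Fcrla*, -0.22 to 0.43 for *Ighd*, -0.67 to 0.27 for *Ms4a1* and -0.0924 to 0.27 for *Pax5*. Of the antibody genes they ran from -3.82 to -2.95 for *Igkc*, -4.61 to -2.88 for *Iglc1*, -4.42 to -3.53 for *Jchain*, -2.96 to -2.20 for *Mzb1*, -0.0834 to 0.14 for *Prdm1*, -0.00482 to 0.19 for *Sdc1*, -3.70 to -3.23 for *Ighg2b* and -5.11 to -4.06 for *Ighg2c*, and *Ighg2c* was called without the third WT library (adjusted p = 0.0371). The log2 fold change of *Cd79a* was -0.00184 with voom and that of *Ms4a1* was 0.017 with a pseudocount of 1, both of the opposite sign and near 0, and the cause was not tested. The median without *Cd22* and *Blk*, added after seeing the data, was 0.0094.

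Over all genes the 2 calls became 6 with no filter, 1 with at least 10 fragments in every library, 4 with the replicate block and 1 to 14 with a library left out, the most without the first Crlf2-/- library. The immunoglobulin median was -1.74 with no filter, which adds genes with few fragments, and -1.58 with a pseudocount of 1, and the T cell median -0.56 with a pseudocount of 1. The libraries share replicate numbers only: same-numbered deviations correlated at -0.0163, 0.115 and 0.12, so pairing was not assumed, and with the replicate block the median of the members was 0.07 with 0 called. The members other than *Cd22* and *Cd79b* had 3 to 105 fragments per library, and for *Ms4a1*, *Cd79a*, *Cr2* and *Bank1* the variance between the Crlf2-/- libraries was 13.5 to 45.5 times the mean, where counting alone would give about 1.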
